A study of Cucurbita pepo with 23 samples.

Results

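Genes of raffinose-family sugar metabolism were followed in the nectaries of *Cucurbita pepo*. They are the 8 of 8861 genes in the deposited expression table whose description holds the words galactinol, raffinose, stachyose or alpha-galactosidase, together with 3 melon entries listed by name, all of which these words found as well. The word galactinol found 5 genes and alpha-galactosidase found 3, and no description held raffinose or stachyose. No level entered the choice among the genes of the table. Each of the 8 genes had a value of at least 10 in at least 2 libraries, as did all 8861 genes. Genes of the family that the table does not hold could not be followed.

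RNA came from hand-dissected nectaries of Crookneck Yellow Squash, all plants raised in long days under the same light and temperature. Female and male flowers were each sampled at −24, −15, 0 and +9 hr relative to anthesis, which gave 8 groups and 23 libraries. Each group had 3 libraries, except female nectaries at −15 hr with 2. Nectar was secreted at 0 hr, both earlier timepoints are pre-secretory and +9 hr is post-secretory. The hours are those of the study's text, while the series' design text gives −12 and +12 hr for the second and the last timepoint. The −24 and 0 hr timepoints lie a day apart, as do −15 and +9 hr, so that between neighbouring timepoints stage and time of day cannot be told apart. Nothing states that the libraries of a group came from separate plants, so that p-values measure the spread between these libraries, which may be technical. In RNA from whole nectaries, fewer cells of a type and less RNA per cell cannot be told apart.

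Raffinose-family sugars are sucrose with galactose units attached, and cucurbits load them into the phloem as their main transport sugars. Galactinol synthase joins UDP-galactose to inositol, and galactinol–sucrose galactosyltransferases (raffinose synthases) move that galactose on to sucrose. In sink tissues α-galactosidases split the galactose off again, which frees sucrose. Raffinose synthases and the alkaline α-galactosidases belong to 1 protein family, the seed imbibition or SIP proteins, so that the description "galactinol–sucrose galactosyltransferase" does not by itself tell a builder from a splitter of these sugars. In Arabidopsis, seed imbibition 2 is known as an alkaline α-galactosidase that acts on raffinose.

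By role, the genes were 1 galactinol synthase, 4 described as probable galactinol–sucrose galactosyltransferases and 3 described as α-galactosidases. *GOLS2* (XM_008460096.1) is described as galactinol synthase 2. *RAFS6* (XM_008445736.1) is described as galactosyltransferase 6 and matches a raffinose synthase family gene of Arabidopsis, and *SIP2* (XM_008462536.1) is described as galactosyltransferase 2 and matches seed imbibition 2, as do *GGT1* and *GGT2* beside a second Arabidopsis gene each. The names *RAFS6* and *SIP2* follow the study, which describes both genes as encoding putative α-galactosidases. *GGT1* (XM_008465452.1) and *GGT2* (XM_008466274.1) are short names used here for the entries described as galactosyltransferase 1 and as a further galactosyltransferase 2. *AGAL1* (XM_008447688.1), *AGAL2* (XM_008447689.1) and *AGAL3* (XM_008458716.1) are named here after the Arabidopsis gene each matches. Values are normalized reads, that is reads per melon gene after the authors' upper-quartile scaling, and they are not per length. Levels are therefore compared between libraries and not between genes.

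Sums of all genes ran from 9269760 to 16139522 normalized reads per library. Low values lay on steps of 1.22 to 1.44 in 9 libraries, 5 of them at 0 hr, so that a low value there rests on fewer reads than its size. Replicates differed by a root mean square of 0.40 to 1.15 on the log2 scale, with female +9 hr replicate 1 the farthest from its group. Each library correlated best with a group of its own timepoint, 6 of them with the other sex. The authors' sheet of means counts female 0 hr replicate 1 with the −15 hr libraries in all 8861 genes, whereas the labels place it at 0 hr, and it is kept at 0 hr here. The nectary markers *SWEET9*, *MYB305* and *CWINV4* together summed to 589 to 1254 in female nectaries at −24 hr, against 96244 to 207113 in male nectaries at that timepoint. They summed to at least 250937 in every library at −15 and 0 hr. The study reports that the induction of these genes is stage-specific. Their sum therefore cannot tell the share of nectary tissue in a library from the stage of the nectary.

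The genes with the highest values, *RAFS6*, *SIP2* and *GGT1*, were high at anthesis and lower at +9 hr in both sexes. *RAFS6* reached 73836 to 290110 normalized reads at 0 hr and 2209 to 28374 at +9 hr over both sexes. The 8 genes together made up 1.59% to 3.19% of all normalized reads in the libraries at 0 hr, and 0.178% to 0.589% in those at +9 hr. From −24 to −15 hr the changes of 4 genes differed between the sexes, among them that of *SIP2*, which rose in female nectaries. At the last step, from 0 to +9 hr, *AGAL3* and *AGAL1*, described as α-galactosidases, rose in both sexes. So did *GGT2*, described as a galactosyltransferase, and *GOLS2*, which had at most 661 normalized reads in any library.

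**Figure D1:**
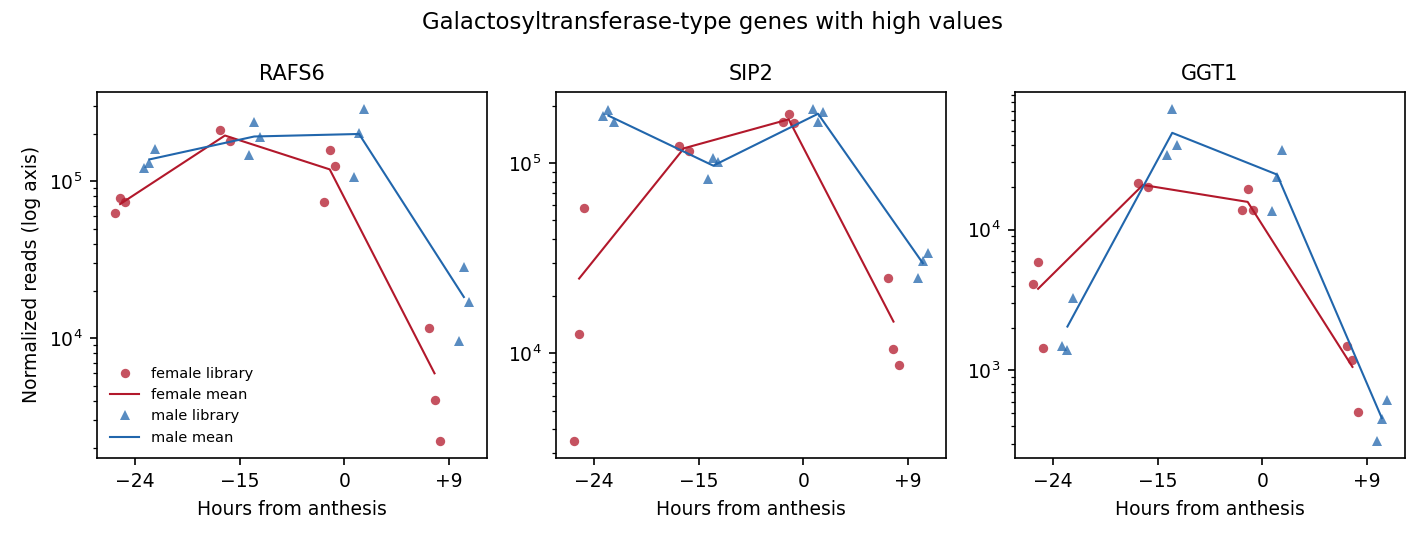
Normalized reads (log axis) of *RAFS6*, *SIP2* and *GGT1* against hours from anthesis; each circle is a female and each triangle a male library, and lines join the group means. *RAFS6* and *SIP2* drop between 0 and +9 hr in both sexes, and the female −24 hr libraries of *SIP2*, from 3460 to 58069, lie below the male ones, from 164585 to 190447.

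*RAFS6* had 62522, 78188 and 73999 normalized reads in the female libraries at −24 hr, 210929 and 180192 at −15 hr, 73836, 158741 and 124437 at 0 hr, and 11674, 4055 and 2209 at +9 hr. The male libraries had 122302, 131368 and 159546 at −24 hr, 147280, 238720 and 192364 at −15 hr, 105701, 204303 and 290110 at 0 hr, and 9586, 28374 and 16964 at +9 hr. The +9 hr libraries of each sex lay below every other library of that sex, while the 3 male groups up to anthesis overlapped one another.

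*RAFS6* fell in both sexes from 0 to +9 hr, with a change of −4.59 ± 0.54 in female and −3.47 ± 0.54 in male nectaries (log2 of the value plus 1, ± SE, here and below). The adjusted p-values were 1.3e-06 and 1.9e-05 (limma, Benjamini-Hochberg over all 8861 genes, n = 3 and 3). The mean was 19.9-fold lower at +9 than at 0 hr in female nectaries and 10.9-fold lower in male nectaries. Leaving out each library in turn, the female change ran from −4.04 (without female +9 hr replicate 3) to −5.24 (without its replicate 1). The nectary markers fell in the same step, from 360451 or more to 30667 or less in female and from 444992 or more to 41181 or less in male libraries. Their part in the falls of *RAFS6*, *SIP2* and *GGT1* was not tested. A change counts as passed here, and is called a rise or a fall, where the adjusted p is under 0.05 and the change at least 2-fold.

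Before anthesis *RAFS6* passed in no step. The female values at −15 hr lay above those at −24 hr without overlap, with a log2 change of 1.45 ± 0.61 that missed the threshold (adjusted p = 0.055, limma with Benjamini-Hochberg, n = 3 and 2). Its male change over the same hours was 0.47 ± 0.54, with overlapping libraries. Over all 8 groups, the order of means ran from male 0 hr (200038) to female +9 hr (5979). Neighbours in that order overlapped in their libraries, except female −24 hr (62522 to 78188) and male +9 hr (9586 to 28374).

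*SIP2* had 3460, 12713 and 58069 normalized reads in the female libraries at −24 hr, 123044 and 116248 at −15 hr, 164229, 181993 and 163184 at 0 hr, and 24974, 10498 and 8650 at +9 hr. Male values were 177707, 190447 and 164585 at −24 hr, 82331, 106720 and 101859 at −15 hr, 193307, 165422 and 186281 at 0 hr, and 25059, 30692 and 33712 at +9 hr. The female gene was low at both ends of the series and high between them, whereas the male gene started at the level it had at anthesis. Female −24 hr replicate 3 was 16.8 and 4.57 times as high as replicates 1 and 2 of its group.

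*SIP2* rose in female nectaries from −24 to −15 hr by 3.13 ± 0.72 (adjusted p = 0.0016, limma with Benjamini-Hochberg, n = 3 and 2). Leaving out each library in turn, the rise ran from 2.14 (without female −24 hr replicate 1) to 4.17 (without its replicate 3). In male nectaries the change over these hours was −0.88 ± 0.64 and did not pass, although the libraries of both timepoints did not overlap. The difference between the sexes' changes was itself tested and was 4.01 ± 0.96 (adjusted p = 0.0042 for the interaction by limma with Benjamini-Hochberg). At −24 hr *SIP2* was lower in female than in male nectaries by a log2 difference of −3.70 ± 0.64 (adjusted p = 9.2e-05, limma, Benjamini-Hochberg, n = 3 and 3), which ran from −2.71 without female replicate 1 to −4.74 without female replicate 3. The nectary markers were low in the same female libraries (589 to 1254 against 96244 to 207113), and their part in this difference was not tested. Because these markers are induced at certain stages, their low values do not by themselves show a low share of nectary tissue.

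*SIP2* fell from 0 to +9 hr, with changes of −3.69 ± 0.64 in female and −2.61 ± 0.64 in male nectaries (adjusted p = 6.8e-05 and 0.0016, limma with Benjamini-Hochberg, n = 3 and 3). Its mean at 0 hr was 11.5 and 6.09 times that at +9 hr. In male nectaries −24 and 0 hr, a day apart, differed by 0.03 on the log2 scale (95% interval −1.31 to 1.37). The male libraries at −15 hr lay below those at both of these timepoints without overlap, at 82331 to 106720.

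In the order of means, *SIP2* was highest in male 0 hr, male −24 hr and female 0 hr nectaries (181670, 177580 and 169802), and these neighbours overlapped. Female −15 hr, male −15 hr and male +9 hr nectaries followed, each without overlap with the group before it. Female −24 hr nectaries came next and overlapped male +9 hr above them and female +9 hr below them.

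*GGT1* had 4119, 5844 and 1435 normalized reads in the female libraries at −24 hr, 21427 and 20097 at −15 hr, 13860, 19525 and 13831 at 0 hr, and 1487, 1180 and 509 at +9 hr. In male nectaries it had 1490, 1393 and 3261 at −24 hr, 33725, 72368 and 40013 at −15 hr, 13451, 23464 and 36933 at 0 hr, and 314, 450 and 612 at +9 hr. Both sexes were thus low, high, high and low again, and the −15 hr libraries lay above the −24 hr libraries without overlap in each sex.

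The rise from −24 to −15 hr was 2.67 ± 0.56 in female nectaries (adjusted p = 7.5e-04, limma with Benjamini-Hochberg, n = 3 and 2). In male nectaries *GGT1* passed with 4.60 ± 0.50 (adjusted p = 1.7e-05, n = 3 and 3 by the same limma test), the only one of the 8 genes to do so in that step. The sexes' changes differed by −1.93 ± 0.75, which missed the threshold (adjusted p = 0.058 by limma). That difference passed when any of 4 libraries was left out, and was −2.52 (adjusted p = 0.0085) without female −24 hr replicate 3. *GGT1* fell from 0 to +9 hr, with changes of −4.01 ± 0.50 in female and −5.68 ± 0.50 in male nectaries (adjusted p = 2.2e-06 and 2.3e-08 by limma). The means were 14.9-fold and 53.7-fold lower at +9 hr.

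In the order of means, *GGT1* ran from male −15 hr (48702) to male +9 hr (459). Neighbours overlapped, apart from female 0 hr (13831 to 19525), which overlapped neither the female −15 hr group above it nor the female −24 hr group below it.

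*GGT2* is the second entry with the description galactosyltransferase 2, and reads of it and of *SIP2* may be split by the match to melon genes. It had 326, 302 and 270 normalized reads in the female libraries at −24 hr, 70 and 108 at −15 hr, 95, 85 and 98 at 0 hr, and 141, 265 and 211 at +9 hr. The male libraries had 57, 76 and 53 at −24 hr, 86, 38 and 86 at −15 hr, 82, 26 and 40 at 0 hr, and 229, 92 and 155 at +9 hr. The highest group was thus female −24 hr, where every library exceeded every library of the other groups.

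*GGT2* fell in female nectaries from −24 to −15 hr by 1.77 ± 0.46 (adjusted p = 0.0043, limma with Benjamini-Hochberg, n = 3 and 2), against a male change of 0.10 ± 0.41. Without female −15 hr replicate 1 the female change was −1.46 and did not pass (adjusted p = 0.068 by limma). The difference of the changes was −1.86 ± 0.62 (adjusted p = 0.029 for the interaction by limma), and it did not pass when any of 7 libraries was left out (−1.56 to −1.86, adjusted p = 0.054 to 0.14). At −24 hr it was higher in female than in male nectaries by 2.27 ± 0.41 (adjusted p = 1.5e-04, limma, n = 3 and 3). It rose from 0 to +9 hr by 1.10 ± 0.41 in female and by 1.73 ± 0.41 in male nectaries (adjusted p = 0.027 and 0.0013 by limma). The female rise was 0.84 and no longer passed under TMM or median-ratio scaling of the libraries, nor without female 0 hr replicate 1 or 2 or female +9 hr replicate 2 or 3 (0.89 to 1.12).

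Galactinol synthase makes the donor of the galactose units, and *GOLS2* was its only entry in the table. It had 0, 11 and 648 normalized reads in the female libraries at −24 hr, 39 and 82 at −15 hr, 7, 1 and 24 at 0 hr, and 167, 193 and 107 at +9 hr. Male values were 661, 147 and 234 at −24 hr, 132, 153 and 40 at −15 hr, 3, 0 and 26 at 0 hr, and 41, 102 and 159 at +9 hr. Its mean was lowest at 0 hr in both sexes, where 2 of the 6 libraries had 0 or 1, and the female −24 hr libraries ranged over nearly its whole span.

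*GOLS2* rose from 0 to +9 hr by 4.37 ± 1.57 in female and by 4.22 ± 1.57 in male nectaries (adjusted p = 0.021 and 0.025, limma with Benjamini-Hochberg, n = 3 and 3). In male nectaries it had fallen from −15 to 0 hr, with a change of −4.31 ± 1.57 (adjusted p = 0.023 by limma), against a female change of −2.97 ± 1.75 that did not pass. Each of these changes lost its call without some single library. For the female rise it was female 0 hr or female +9 hr replicate 2 (3.43 to 4.19), and for the male rise male 0 hr replicate 1 or 2 or male +9 hr replicate 2 or 3 (3.09 to 4.11). For the male fall it was male −15 hr or male 0 hr replicate 1 or 2 (−3.18 to −4.18). The female rise also lost its call when 1 sex was fitted alone (4.37, adjusted p = 0.0595 by limma). At −24 hr the female minus male difference was −3.84 on the log2 scale with overlapping libraries (adjusted p = 0.045 by limma), and −1.69 without the female library at 0 (adjusted p = 0.35). That call was lost when any of 14 libraries was left out, and in the fit without a mean-variance trend (adjusted p = 0.053 by limma). Fold changes of *GOLS2* depend on values near 0 and on the added 1, and none is given as a ratio.

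*AGAL3*, a melibiase-type α-galactosidase, was lowest at anthesis and highest afterwards. It had 2103, 2436 and 2155 normalized reads in the female libraries at −24 hr, 2333 and 2331 at −15 hr, 848, 1104 and 1438 at 0 hr, and 2387, 7756 and 4244 at +9 hr. In male nectaries it had 1850, 1777 and 1475 at −24 hr, 1996, 1712 and 2246 at −15 hr, 780, 856 and 1107 at 0 hr, and 6644, 6710 and 4763 at +9 hr. In each sex the 0 hr libraries lay below all others of that sex.

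*AGAL3* rose from 0 to +9 hr by 1.95 ± 0.30 in female and by 2.72 ± 0.30 in male nectaries (adjusted p = 1.7e-05 and 3.0e-07, limma with Benjamini-Hochberg, n = 3 and 3). The means were 4.24-fold and 6.60-fold higher at +9 hr. From −15 to 0 hr it fell, with changes of −1.08 ± 0.33 in female and −1.12 ± 0.30 in male nectaries (adjusted p = 0.0086 and 0.0030 by limma). Under TMM or median-ratio scaling both of the latter changes kept their sign but were under 2-fold, at −0.82 and −0.75 in female and −0.88 and −0.81 in male nectaries. *AGAL3* did not pass between the sexes at any timepoint, with differences of −0.48 to 0.40 on the log2 scale and SEs of 0.30 to 0.33.

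*AGAL1* had 721, 777 and 488 normalized reads in the female libraries at −24 hr, 83 and 81 at −15 hr, 15, 87 and 80 at 0 hr, and 475, 51 and 455 at +9 hr. The male libraries had 42, 73 and 33 at −24 hr, 48, 56 and 86 at −15 hr, 6, 4 and 14 at 0 hr, and 522, 482 and 678 at +9 hr. Both sexes were high at +9 hr, except female replicate 2, and female nectaries alone were also high at −24 hr.

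*AGAL1* rose from 0 to +9 hr by 6.11 ± 0.70 in male nectaries (adjusted p = 5.4e-07, limma with Benjamini-Hochberg, n = 3 and 3). The male values at 0 hr are low, and this rise was 5.01 with 10 added to each value in place of 1. The female rise was 2.21 ± 0.70, with overlapping libraries (adjusted p = 0.010 by limma). The changes differed between the sexes by −3.90 ± 0.99 (adjusted p = 0.024 for the interaction), a call lost without female 0 hr replicate 2 or 3, male 0 hr replicate 2 or male +9 hr replicate 3 (adjusted p = 0.051 to 0.069). The female rise did not pass without female 0 hr replicate 1 (1.41, adjusted p = 0.089), female +9 hr replicate 1 (1.67, adjusted p = 0.059) or female +9 hr replicate 3 (adjusted p = 0.065).

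At −24 hr *AGAL1* was higher in female than in male nectaries by 3.77 ± 0.70 (adjusted p = 1.8e-04, limma, n = 3 and 3). It fell in female nectaries to −15 hr, with a change of −2.97 ± 0.78 (adjusted p = 0.0045, limma, n = 3 and 2), while the male change was 0.39 ± 0.70, a difference of −3.36 with a 95% interval of −5.56 to −1.16 (adjusted p = 0.021 for the interaction by limma). That difference did not pass without female −15 hr replicate 1 or 3 or male −15 hr replicate 3 (−3.12 to −3.38, adjusted p = 0.050 to 0.061). The male fall came in the next step, from −15 to 0 hr, with −2.95 ± 0.70 (adjusted p = 0.0013 by limma). The low nectary markers of the female −24 hr libraries stand beside these values too, and their part was not tested.

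*AGAL2* had 429, 431 and 222 normalized reads in the female libraries at −24 hr, 133 and 3 at −15 hr, 25, 11 and 81 at 0 hr, and 18, 384 and 95 at +9 hr. Male values were 2, 130 and 179 at −24 hr, 125, 149 and 117 at −15 hr, 68, 33 and 19 at 0 hr, and 71, 77 and 57 at +9 hr. Replicates differed more than for *AGAL1* and *AGAL3*, and groups overlapped except where the female −24 hr or male −15 hr libraries stood above their neighbours.

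*AGAL2* fell in female nectaries from −24 to −15 hr, with a change of −3.90 ± 1.48 (adjusted p = 0.037, limma with Benjamini-Hochberg, n = 3 and 2) that was −1.37 without the −15 hr library with a value of 3 (adjusted p = 0.55). It did not pass without female −24 hr replicate 1 or 2 either. It passed in no male comparison. The difference of the sexes' changes was −5.56 ± 1.99 (adjusted p = 0.040 for the interaction by limma), and −3.03 without that library (adjusted p = 0.31). It did not pass when any of 6 other libraries was left out either. It was the only one of the 8 genes that passed in neither sex from 0 to +9 hr, with changes of 1.59 ± 1.33 and 0.93 ± 1.33.

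**Figure D2:**
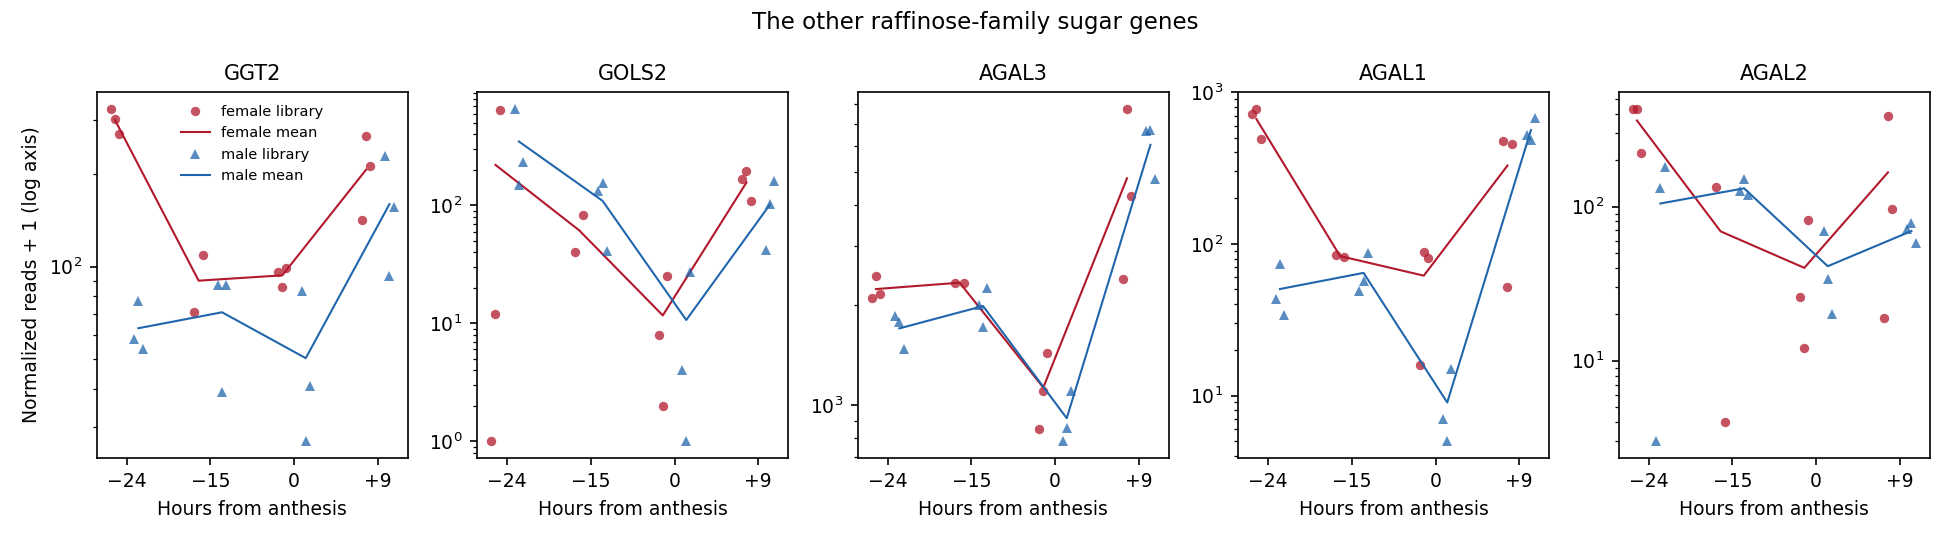
Normalized reads plus 1 (log axis) of *GGT2*, *GOLS2*, *AGAL3*, *AGAL1* and *AGAL2* against hours from anthesis, with female libraries as circles, male libraries as triangles and lines through the group means. *AGAL3* is lowest at 0 hr in both sexes (780 to 1438) and highest at +9 hr, and the female −24 hr libraries of *AGAL1* (488 to 777) and *GGT2* (270 to 326) stand above the male ones.

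Counted over the 8 genes, most passed at the last step. From 0 to +9 hr 3 genes fell and 4 rose in each sex, the same 7 genes in the same direction. Of all genes, 17.3% fell and 32% rose in female nectaries, and 17.6% fell and 31.4% rose in male nectaries. The median change of the 8 genes was 1.34 in female and 1.33 in male nectaries, against 0.34 and 0.29 over all genes, a median that hides the split into large falls and rises. Under median-ratio scaling the all-gene counts of the female step moved from 2839 higher and 1537 lower to 2368 and 1964, while 6 of the 8 genes passed. On the upper-quartile scale the median change of all genes reached −0.40, between female −24 and 0 hr, and under TMM it lay between −0.07 and 0.08. TMM is built to bring the bulk of genes near 0. Scaling and a real shift of many genes therefore cannot be told apart by these medians. The libraries of 0 and +9 hr did not overlap for 6 of the 8 genes in female and 7 in male nectaries, against 61.3% and 67.7% of all genes.

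From −24 to −15 hr 2 of the 8 genes rose and 3 fell in female nectaries, where 13.9% of all genes rose and 24% fell. In male nectaries 1 gene rose and none fell, against 1.57% and 3.7% of all genes. These male shares come from 139 and 328 genes, which became 65 and 181 without male −15 hr replicate 2, 77 and 179 without male −24 hr replicate 1 and 81 and 197 without its replicate 2. The libraries of both timepoints did not overlap for 6 genes in female nectaries and for 2 in male nectaries, against 67.5% and 34.6% of all genes. The sexes' changes in this step differed for 4 of the 8 genes, upward in female relative to male nectaries for *SIP2* and downward for *AGAL1*, *AGAL2* and *GGT2*. Over all genes 12.3% differed upward and 15.7% downward.

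From −15 to 0 hr only *AGAL3* passed in female nectaries, where 31.1% of all genes fell and 20.5% rose. In male nectaries 3 of the 8 genes (*AGAL3*, *AGAL1* and *GOLS2*) fell, where 29.7% of all genes fell and 17.5% rose. Under median-ratio scaling these all-gene counts were near even, with 2265 higher and 2131 lower in female nectaries (1817 and 2754 as deposited) and 1987 and 2000 in male nectaries (1554 and 2631 as deposited). The libraries of −15 and 0 hr did not overlap for 5 of the 8 genes in each sex, against 77.6% and 69.6% of all genes. No interaction passed among the 8 genes in this step (limma with Benjamini-Hochberg, 0 with an unadjusted p under 0.05), where 0.0113% of all genes passed downward and 0% upward. The interaction from 0 to +9 hr passed for *AGAL1* alone among the 8, against 4.6% of all genes downward and 2.57% upward.

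**Figure D3:**
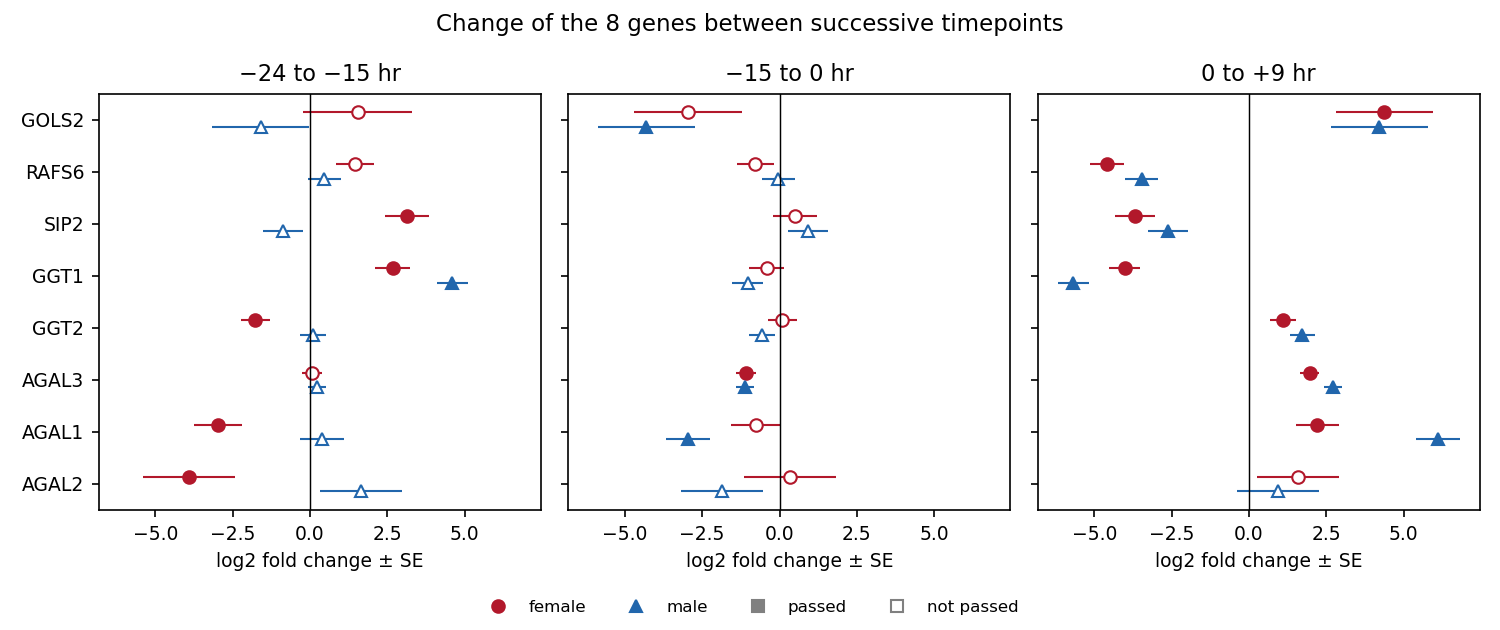
The log2 fold change of each of the 8 genes in the 3 successive steps, with bars of ± 1 SE; circles are female and triangles male nectaries, filled where the change passed (adjusted p under 0.05 and at least 2-fold) and open where it did not. At the last step *RAFS6*, *SIP2* and *GGT1* lie left of 0 and *GOLS2*, *GGT2*, *AGAL3* and *AGAL1* right of it in both sexes, and at the first step the sexes stand apart for *SIP2*.

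Comparisons that skip a timepoint share libraries with the successive steps and are given for their own values. From −24 to 0 hr 2 genes rose (*SIP2* and *GGT1*) and 4 fell (*AGAL3*, *AGAL1*, *AGAL2* and *GGT2*) in female nectaries, where 25.6% of all genes rose and 38% fell. The change of *AGAL3*, −1.01 as reported, was −0.61 under TMM and −0.60 under median-ratio scaling and did not pass. Nor did it pass without female −24 hr replicate 2 or female 0 hr replicate 1. The fall of *AGAL2* did not pass when any of 3 libraries was left out (−2.91 to −3.40, adjusted p = 0.053 to 0.086 by limma). In male nectaries *GGT1* rose by 3.58 ± 0.50 while *AGAL1* and *GOLS2* fell, where 17.5% of all genes rose and 31.1% fell. Under median-ratio scaling the all-gene counts of this comparison were 2816 higher and 2772 lower in female nectaries (2268 and 3363 as deposited) and 2063 and 2093 in male nectaries (1554 and 2759 as deposited). TMM gave 1968 and 2185 in male nectaries.

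From −15 to +9 hr *RAFS6*, *SIP2* and *GGT1* fell in both sexes. *GGT2* rose in both, and *AGAL3* and *AGAL1* passed as higher in male nectaries alone, without a test of that difference. Of all genes 25.5% rose and 21.9% fell in female nectaries, and 24.2% rose and 19.4% fell in male nectaries. The male fall of *SIP2*, −1.70 as reported, did not pass when any of 5 libraries was left out (−1.58 to −1.80), and the rise of *GGT2* did not pass when any of 3 was left out in either sex.

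Between −24 and +9 hr *RAFS6* fell, with changes of −3.92 ± 0.54 in female and −3.04 ± 0.54 in male nectaries (adjusted p = 3.3e-06 and 1.1e-04, limma, n = 3 and 3), and so did *GGT1*, with −1.76 ± 0.50 and −2.09 ± 0.50. *SIP2* fell in male nectaries by 2.58 ± 0.64 (adjusted p = 0.0022 by limma), and its female change was −0.06 ± 0.64, or 0.99 without female −24 hr replicate 3, neither of which passed. In all 2 genes passed in female nectaries, both lower, against 29.1% of all genes lower and 26.3% higher. Without female +9 hr replicate 1, 4 passed. In male nectaries 3 rose and 3 fell, where 21.6% and 19.7% of all genes did.

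Between the sexes, 4 of the 8 genes passed at −24 hr, none at −15 and 0 hr and 1 at +9 hr, a course that the table as a whole shared. At −24 hr *AGAL1* and *GGT2* were higher and *SIP2* and *GOLS2* lower in female nectaries, where 24.6% of the table's genes were higher and 16.6% lower. The libraries of the sexes did not overlap for 6 of the 8 genes there, for 3 at −15 hr, and for 2 at 0 and at +9 hr, against 67%, 19%, 22.9% and 27% of the table's genes. At −15 hr none of the 8 passed (0 with an unadjusted p under 0.05 by limma), where 0.0903% and 0.0451% of all genes did. At 0 hr none passed, against 0.181% of all genes higher and 0.0677% lower. That background rests on single libraries, with 207 genes higher and 34 lower without female 0 hr replicate 1, 86 and 26 without male 0 hr replicate 1, and 1 and 0 without female replicate 2 or 3 or male replicate 3. At that timepoint *AGAL1* and *GGT2* had an unadjusted p under 0.05, with 95% intervals of 1.12 to 4.05 and of 0.19 to 1.92 for the female minus male difference. The difference of *AGAL1* passed when either of 2 libraries was left out. At +9 hr *RAFS6* was lower in female nectaries by 1.82 ± 0.54 with overlapping libraries (adjusted p = 0.024, limma, n = 3 and 3), against 6.36% of all genes lower and 8.36% higher. That call was lost without female replicate 2 or 3 or male replicate 2 or 3 (−1.27 to −1.81, adjusted p = 0.058 to 0.14), and the difference was −2.48 without female replicate 1. The summed nectary markers at +9 hr were 1371 to 30667 in the female libraries and 10818 to 41181 in the male ones, and their part was not tested.

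Ratios of 2 genes within a library need no scaling between libraries. *RAFS6* over *SIP2* was 18.1, 6.15 and 1.27 in the female libraries at −24 hr, 1.71 and 1.55 at −15 hr, 0.450, 0.872 and 0.763 at 0 hr, and 0.467, 0.386 and 0.255 at +9 hr. In male nectaries it was 0.688, 0.690 and 0.969 at −24 hr, 1.79, 2.24 and 1.89 at −15 hr, 0.547, 1.24 and 1.56 at 0 hr, and 0.383, 0.924 and 0.503 at +9 hr. The female ratio was thus highest at −24 hr, apart from replicate 3, and the male ratio was highest at −15 hr without overlap with any other male group.

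*AGAL3* over *RAFS6* lay between 0.00382 and 0.0336 in all 17 libraries up to anthesis. At +9 hr it was 0.204, 1.91 and 1.92 in female and 0.693, 0.236 and 0.281 in male nectaries. No library at +9 hr overlapped an earlier one in this ratio. Because the values are not per length, the size of such a ratio is not a ratio of molecules, and only its course over the libraries is read.

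**Figure D4:**
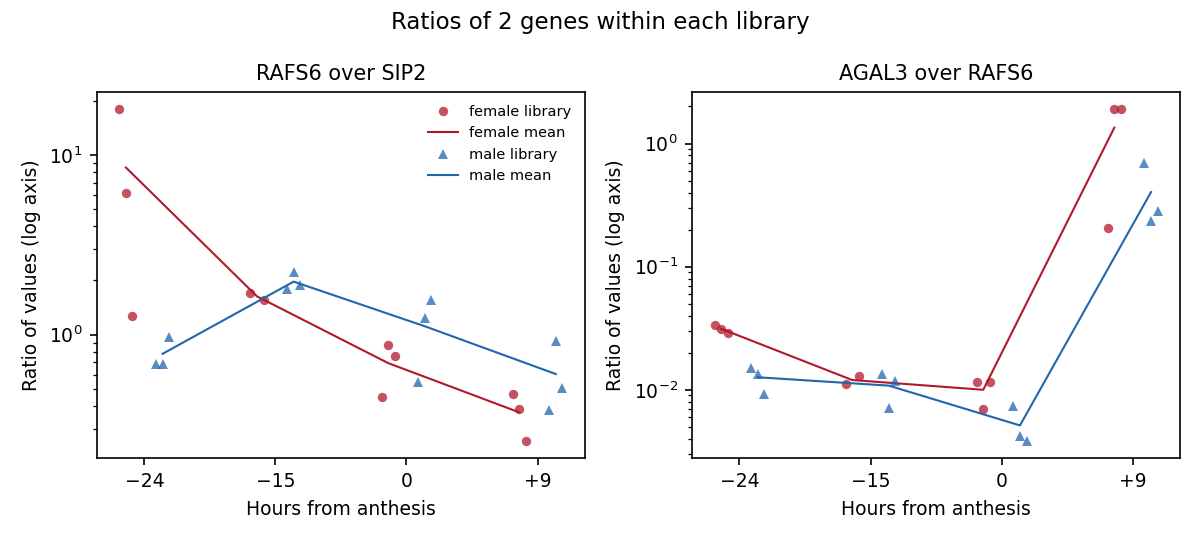
The ratio of *RAFS6* to *SIP2* and of *AGAL3* to *RAFS6* in each library (log axes) against hours from anthesis, with female libraries as circles, male libraries as triangles and lines through the group means. The first ratio spans 1.27 to 18.1 in female nectaries at −24 hr, and the second is at most 0.0336 up to anthesis and at least 0.204 at +9 hr.

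*RAFS6* and *SIP2* held most of the summed value of the 4 galactosyltransferase entries in every library. That sum was 70427 to 133773 in female nectaries at −24 hr and at least 263422 in every male library up to anthesis. It was 252020 to 360344 in female nectaries at 0 hr and 11579 to 38276 at +9 hr. *GGT1* took 12.0% to 17.3% of the sum in male nectaries at −15 hr, its largest share in any group, and 0.431% to 0.996% in male nectaries at −24 hr. The 3 genes described as α-galactosidases summed to 854 to 1599 at 0 hr over both sexes and to 2880 to 8191 at +9 hr. These are shares of normalized reads and not of molecules.

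Across the 23 libraries the course of *RAFS6* (log2 of the value plus 1) correlated with that of *SIP2* at a Pearson r of 0.73, with *GGT1* at 0.78 and with *AGAL3* at −0.73. Among all genes of the table, *SIP2* ranked 509 and *GGT1* 338 by likeness to *RAFS6*. *SIP2* correlated with *GGT2* at −0.81. The genes of the table most like *RAFS6* were a flavoprotein subunit of mitochondrial NADH dehydrogenase, a cytosolic glyceraldehyde-3-phosphate dehydrogenase and isoamylase 3 (r of 0.97 each). Those most like *SIP2* were the nuclear factor Y subunit C-9 (0.96), an uncharacterized gene (0.95) and REVEILLE 6, of the family of MYB-type clock factors (0.93). For *GGT1* they were peptide methionine sulfoxide reductase A5 (0.95), the cytoskeletal TONNEAU 1b-like protein (0.91) and 3-phosphoinositide-dependent protein kinase 1 (0.89). The libraries share their 8 groups, so that these values describe a shared course over stage and sex.

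The neighbouring steps of sugar metabolism were followed in 36 further genes, chosen by description. The galactinol precursor list held 5 genes that make inositol or UDP-galactose. The list here named galactose use held 9 genes of galactose, UDP-glucose and hexose phosphate conversion. Not all of these are particular to galactose, and the study places phosphoglucomutase in starch and sucrose synthesis. A list of sucrose use and synthesis held 15 genes and a list of β-galactosidases held 7.

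All 5 galactinol precursor genes passed from −15 to 0 hr in both sexes, 2 upward and 3 downward, in a step where 20.5% of all genes rose and 31.1% fell in female nectaries and 17.5% and 29.7% in male nectaries. The 2 entries of UDP-glucose 4-epimerase, which interconverts UDP-glucose and UDP-galactose, were among those that fell, with changes of −2.29 ± 0.40 (XM_008439201.1) and −1.54 ± 0.34 (XM_008453734.1) in female nectaries. The entry XM_008453734.1 had risen there from −24 to −15 hr by 2.64 ± 0.34, from 2592 ± 538 to 15940 ± 1331 normalized reads (mean ± SD, n = 3 and 2). Its male mean at −24 hr was 22926 ± 993 (SD, n = 3). Inositol-3-phosphate synthase (XM_008455558.1), the first enzyme of inositol synthesis, rose from −15 to 0 hr by 2.31 ± 0.30 in female and by 1.63 ± 0.27 in male nectaries. The median change of the list in this step was −1.54 and −1.78, against −0.30 and −0.31 over all genes.

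In the galactose use list 8 of 9 genes fell from −15 to 0 hr in female and 7 of 9 in male nectaries, with none higher, against 31.1% and 29.7% of all genes lower (2131 and 2000 genes under median-ratio scaling). The list's median changes were −1.92 and −1.31, against −0.30 and −0.31 over all genes. Chloroplastic phosphoglucomutase (XM_008469031.1), which interconverts glucose phosphates, fell in female nectaries with a change of −3.96 ± 0.52, from 2471 ± 938 to 154 ± 28.1 normalized reads (n = 2 and 3). A UDP-glucose pyrophosphorylase (DQ445483.1) rose in female nectaries from −24 to −15 hr by 2.59 ± 0.45 and fell in both later steps, with −2.24 ± 0.45 and −2.70 ± 0.40. A second phosphoglucomutase (XM_008458259.1) rose from 0 to +9 hr in male nectaries by 1.93 ± 0.24, and its female change of 0.54 ± 0.24 did not pass.

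In the list of sucrose use and synthesis 11 of 15 genes rose from −24 to −15 hr in female nectaries and 1 fell, while 2 rose and none fell in male nectaries. Of all genes 13.9% rose and 24% fell in the female step, and 1.57% and 3.7% in the male step. From 0 to +9 hr 10 of the 15 fell in each sex, 2 rose in female and 4 in male nectaries, where 17.3% and 17.6% of all genes fell and 32% and 31.4% rose. Sucrose-phosphate synthase 2 (XM_008458932.1), which makes the precursor of sucrose, fell at that step, with −6.19 ± 0.81 in female and −4.46 ± 0.81 in male nectaries. A cell wall invertase (XM_008446238.1), named *CWINV4* by the study and one of the nectary markers above, rose in female nectaries by 5.54 ± 0.65 to −15 hr and then changed by −5.26 ± 0.65 to 0 hr. A sucrose synthase (XM_008452746.1) had the opposite course in female nectaries, with a change of −4.99 ± 0.50 to −15 hr and a rise of 5.49 ± 0.50 to 0 hr. Both changes rest on 5 to 6 normalized reads at −15 hr, against 177 to 230 at −24 hr and 246 to 391 at 0 hr. Its male change to −15 hr was −0.35 ± 0.45 and did not pass. The list's median change from 0 to +9 hr was −2.26 in female and −2.32 in male nectaries.

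The β-galactosidases act on galactose in the other linkage and are known from cell wall turnover. From 0 to +9 hr 5 of 7 rose in each sex, and 1 fell in male nectaries, where 32% and 31.4% of all genes rose and 17.3% and 17.6% fell. β-galactosidase 9 (XM_008440119.1) rose by 4.26 ± 0.33 in female and by 5.61 ± 0.33 in male nectaries, from 29 to 64 up to 830 to 1047 normalized reads in female and from 16 to 20 up to 800 to 1038 in male libraries. A further entry (XM_008448737.1) rose by 3.28 ± 0.54 and by 5.58 ± 0.54 from values of 0 to 8 at 0 hr. β-galactosidase 10 (XM_008462587.1) rose by 3.82 ± 1.25 and by 3.77 ± 1.25. Its female libraries overlapped, with 0 to 51 normalized reads at 0 hr and 44 to 926 at +9 hr. The male libraries had 3 to 8 and 29 to 285. The list's median change was 2.64 in female and 3.77 in male nectaries.

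**Figure D5:**
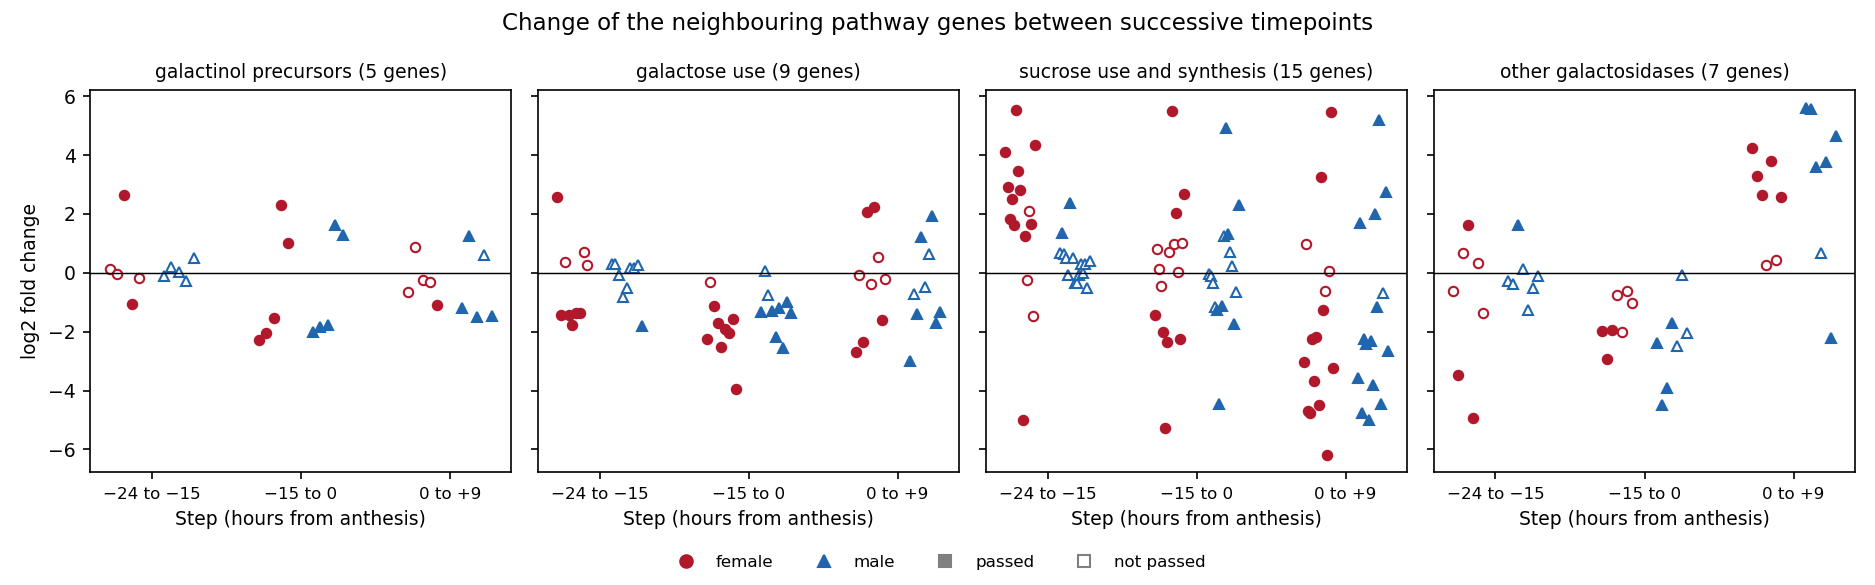
The log2 fold change of each of the 36 neighbouring genes in the 3 successive steps, 1 panel per list; circles are female and triangles male nectaries, filled where the change passed and open where it did not. In the galactose use panel 8 of 9 female and 7 of 9 male points are filled and below 0 at the step from −15 to 0 hr, and 10 of 15 sucrose genes are filled and below 0 at the last step in each sex.

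Markers of other tissues moved with stage as well. The 13 green mesophyll genes summed to 117 to 2461 normalized reads at −15 hr over both sexes. At 0 hr they summed to 7845 to 8351 in female and 1663 to 6327 in male libraries, and at +9 hr to 2861 to 17469 in female and 8181 to 9176 in male libraries. The 3 phloem genes summed to 223 to 324 at −15 hr and to 668 to 6046 at +9 hr, and the 3 pollen and anther genes to 1486 to 4144 over all libraries. Their part in the changes of the 8 genes was not tested.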

How the data were processed

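Nectary RNA of both sexes was sequenced by the authors as paired reads. The deposited values are scores: reads per melon gene that the authors had brought to a common upper quartile and rounded. Trinity contigs of all libraries had been assigned to melon genes by their blastn match. No read counter is named in the sources used here, and reads of squash copies that match 1 melon gene, or of close paralogs, may be summed or split by the match. The authors' group means were read only to check which libraries they hold, and their ratios and p-values between stages were not used.

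Values were tested on the scale of log2(value + 1) with limma 3.58.1 in R 4.3.3, with 1 mean per sex and stage over all 23 libraries and a mean-variance trend, with Benjamini-Hochberg adjustment over all 8861 genes and no filter. The design had allowed for raw counts, and the deposited unit called for this test. The 8 genes, the lists of neighbouring genes and the markers were chosen with earlier results of these data known. One pattern of the phloem list that matched phosphatase genes was dropped. All 8 genes were named; of each neighbouring list, at most 3 genes passing in a successive step, by largest change; and for each of the 3 listed genes the 3 most correlated. The fit was checked on simulated data in which far fewer genes changed than here and the spread of the noisiest genes was capped. The check therefore does not cover genes as noisy as *GOLS2*. Protein sequences of the 8 genes were not compared, and no sequence is shown. Alternatives were pseudocounts of 0.5 and 10, TMM and median-ratio scaling, filters (a mean of 100, or 10 in 2 libraries), 1 sex alone, no trend, the replicate number as a block and leaving out each library. All 8861 genes met the limit of 10 in 2 libraries, so that this filter could change no call. The fit of 1 sex alone covered only comparisons within a sex.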

Additional observations from a re-analysis of the deposited data

Results flagged for a closer look

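In 5 results the change between timepoints differed between the sexes by a test of the interaction (limma, Benjamini-Hochberg over all genes). From −24 to −15 hr the female minus male difference was 4.01 for *SIP2* (adjusted p = 0.0042), −3.36 for *AGAL1* (0.021), −5.56 for *AGAL2* (0.040) and −1.86 for *GGT2* (0.029). From 0 to +9 hr it was −3.90 for *AGAL1* (0.024). In the first step *SIP2* was higher at −15 than at −24 hr in all female libraries and lower in all male libraries, and for *AGAL1* and *GGT2* the female libraries did not overlap while the male ones did. Of the 5 results, that of *SIP2* passed under every alternative run, and each of the others was lost when some single library was left out.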

How the results depend on the processing

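Of 61 results in which 1 of the 8 genes passed, 40 did so under all alternatives run for them, 12 were lost only without some library and 9 under another alternative. The number passing from −15 to 0 hr in female nectaries went from 1 to 0 under TMM and under median-ratio scaling, where the fall of *AGAL3* was under 2-fold. Leaving out each library in turn, that number ran from 0 to 2 (0 without female 0 hr replicate 1), and the number from −24 to +9 hr in female nectaries from 2 to 4. For female against male nectaries it ran from 0 to 1 at 0 hr and from 0 to 1 at +9 hr. For the sexes' changes it ran from 1 to 6 from −24 to −15 hr and from 0 to 1 from 0 to +9 hr. *RAFS6* from −24 to −15 hr in female nectaries, 1.45 as reported, passed under 5 alternatives and when any of 3 libraries was left out. These include TMM (1.59, adjusted p = 0.042 by limma) and no trend (adjusted p = 0.040).

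Sign changes were found in results that did not pass, and those with a change of at least 2-fold as reported are listed here. Smaller changes crossed 0 as well and are not listed in full. Examples are *SIP2* for female −24 to +9 hr (−1.05 to 0.99) and *RAFS6* for male −15 to 0 hr (−0.36 to 0.36). Leaving out each library in turn, *GOLS2* ran from −0.62 to 4.06 for female −24 to −15 hr and from −3.58 to 1.09 for female −24 to 0 hr, with the sign turned by female −24 hr replicates 1 and 3. *AGAL2* ran from −0.59 to 4.47 for female −15 to +9 hr, from −5.03 to 0.037 for female against male at −15 hr and from −0.33 to 4.74 for the sexes' change from −15 to 0 hr, with the sign turned by female −15 hr replicate 3. It ran from −0.23 to 2.72 for male −24 to −15 hr, where male −24 hr replicate 1 turned it.

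Of 77 same-numbered pairs of libraries, 10 had deviations correlating over 0.1 (r from −0.50 to 0.27, median r of 0). Pairs with unlike numbers were not compared, so that pairing by replicate number was not itself tested. With the replicate number as a block, *RAFS6* passed for female −24 to −15 hr (1.57) and *AGAL2* no longer did (−3.68), and the interaction of *AGAL2* was −5.34 and lost, so that 3 genes passed there; no other call of the 8 genes changed. Values under about 10 rest on few reads, which limits *GOLS2*, *AGAL1* and *AGAL2* most.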
